A study of Homo sapiens with 6 samples.

Results

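The genes described here are 10 members of the matrix metalloproteinase (MMP) system, namely MMP1, MMP2, MMP3, MMP9, MMP10, MMP14 and MMP19 and the tissue inhibitors TIMP1, TIMP2 and TIMP3, out of 19934 gene symbols in the count tables. They were chosen by symbol from a fixed list, and the choice was made with the values of both knockdowns against control in view, because MMP9, MMP10 and MMP19 differ there. In those contrasts the members are therefore described by their values, with no p given for any of them, and the standard errors, intervals and counts of calls shown there support nothing. The knockdowns compared with each other carry a test, whose p-values are not free of the choice because the same knockdown libraries were in view. RNA-seq was performed in NCI-H1299 (H1299) cells, an established human lung cancer line that the labels call adenocarcinoma of wild-type genotype. The study describes the line as p53-null. Over a total of 4 days the cells received, by lipofection, a control siRNA (si-Ctr), an siRNA that targets ZBTB11 (si-ZBTB11) or one that targets SET (si-SET), and each treatment has 2 biological replicates. ZBTB11 is a zinc finger and BTB domain protein. SET, which the study saw in both nucleus and cytoplasm, was found there to bind ZBTB11 in the nuclear fraction. The study asked which genes ZBTB11 and SET each control in lung cancer cells. The labels do not say which of 2 ZBTB11 oligos a library received, all libraries come from 1 cell line, and both knockdowns are set against the same si-Ctr libraries.

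MMPs are zinc-dependent proteases that cut collagens, basement membrane proteins and other extracellular proteins, and most are secreted as inactive precursors that another protease must open. TIMPs bind the active site and block it, and some also bind the precursors. In lung tumours the system is best known for matrix degradation during invasion, and MMP9 in tissue often comes from infiltrating leukocytes, which a pure cell line lacks.

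The libraries held 16653115 to 17694522 counts, and replicates differed by more than sampling noise, with a chi-square statistic of 2.34 to 2.71 per degree of freedom. ZBTB11 had 925 and 1075 counts in si-Ctr, 548 and 544 in si-ZBTB11, and 846 and 708 in si-SET. It fell on its own knockdown (log2 fold change −0.86, edgeR adjusted p = 4.45e-17, from the quasi-likelihood test) and also on SET knockdown (−0.39, edgeR adjusted p = 2.12e-05), and it was lower in si-ZBTB11 than in si-SET (−0.48, edgeR adjusted p = 6.02e-05). SET had 11656 and 11007 counts in si-Ctr and 1032 and 1031 in si-SET, 8.97% of the control level. Of 10 epithelial and lung markers, KRT8 and KRT18 reached 6083 to 8320 counts, while CDH1, the epithelial cadherin, stayed at or below 3 counts and the surfactant gene SFTPC at or below 1. Summed leukocyte markers lay between 0.358 and 0.82 CPM, counts scaled to library size, in the 6 libraries, with S100A8 at 0 counts and S100A9 at no more than 1. The libraries thus carried almost no RNA of the leukocyte genes tested. As these are bulk samples, fewer cells with a transcript and less of it per cell cannot be told apart.

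The sequences that bear on these genes are the siRNA targets, the site in MMP9 at which the study measured chromatin binding, and the promoters of members that RefSeq's table holds. The siRNA target sequences are shown first, since a short guide can also pair with other transcripts, and capitals mark the bases that the seed of the guide reads.
si-ZBTB11 #1: ggagctgtttcCAGTCATg
si-ZBTB11 #2: gtgacatctctTGTACACt
si-SET: gugacagaauuUGAAGAUa
The seed match of the first ZBTB11 oligo occurred in the 3′ UTR of 11.2% of 18890 genes and, among the members, in MMP1 alone. The seed match of the second, found in 8.82% of genes, and that of si-SET, found in 15.7%, occurred in no member. The study detected binding of both ZBTB11 and SET in the gene body of MMP9 by ChIP-qPCR, with these primers.
MMP9 ChIP forward: aaggcgcagatggtggat
MMP9 ChIP reverse: taagaggagcttagtgtggtgtc
On hg38 they enclose 145 bases at chr20:46014381-46014525 on the plus strand, beginning 5473 bases after the start of MMP9, in coding exon 12 of 13 and the intron that follows. None of the motifs spelled out next occurs in that stretch, which is a search for letters and no measurement of binding.

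RefSeq's promoter table (GRCh38.p14) matched 4 of the 10 members, MMP10, MMP14, TIMP1 and TIMP3, and not MMP1, MMP2, MMP3, MMP9, MMP19 and TIMP2. Both strands were searched for CCGGAAG and CAGGAAG, forms of the study's ZBTB11 motif. Next came TGANTCA, the AP-1 motif with any base allowed in the middle, and TATAAA, the letters of a core element of promoters. From 250 bases before to 50 after the start, these letters are found in 10.3%, 12.7%, 7.71% and 11.5% of 35116 promoters. Promoters of MMP10 and TIMP1 are shown up to the start of the annotated gene, because MMP10 had the largest difference on ZBTB11 knockdown and TIMP1 the only ZBTB11 motif match among these 4. Capitals mark the matches, TGANTCA (spelled TGAATCA) and TATAAA in MMP10 and CAGGAAG in TIMP1.
MMP10 (chr11:102780629-102780878, minus strand): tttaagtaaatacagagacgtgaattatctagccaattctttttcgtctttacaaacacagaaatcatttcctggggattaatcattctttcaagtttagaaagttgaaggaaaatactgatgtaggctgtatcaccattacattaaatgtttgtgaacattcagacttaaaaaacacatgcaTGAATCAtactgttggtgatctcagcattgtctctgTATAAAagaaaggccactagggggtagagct
TIMP1 (chrX:47582186-47582407, plus strand): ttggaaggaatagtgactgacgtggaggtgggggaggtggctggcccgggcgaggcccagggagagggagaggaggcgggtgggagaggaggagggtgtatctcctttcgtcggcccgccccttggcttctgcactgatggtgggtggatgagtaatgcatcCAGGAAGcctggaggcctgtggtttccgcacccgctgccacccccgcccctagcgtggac
The MMP10 promoter is AT-rich, with a GC content of 34.4% and 2 CG dinucleotides in 250 bases, and its matches begin 67 and 31 bases before the start. The TIMP1 promoter has a GC content of 64.8% and 12 CG dinucleotides in the 250 bases before RefSeq's start, which lies 28 bases beyond the end of the stretch printed here. Its match begins 88 bases before that start. MMP14 and TIMP3 had no match, at a GC content of 56.8% and 72.4%. A letter match is a description and no measurement of binding.

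The members differed in direction. MMP10 was higher than in control on both knockdowns, MMP9 and MMP19 were lower on both, and TIMP1 and TIMP2 stayed within 0.17 of control on the log2 scale. The largest difference on ZBTB11 depletion was that of MMP10, which encodes stromelysin-2, an enzyme that cuts a broad range of matrix proteins and opens the precursors of other MMPs. MMP10 (chromosome 11, 102770502 to 102780628, minus strand, hg38) had 66 and 43 counts in si-Ctr, 238 and 281 in si-ZBTB11, and 105 and 99 in si-SET. Both si-ZBTB11 libraries lay above every other library and both si-SET libraries lay above both controls. In normalized CPM the levels were 3.17 ± 0.849 (SD, n = 2), 15.3 ± 2.12 and 5.86 ± 0.0873, so that MMP10 stood at 4.83 times the control level in si-ZBTB11 and 1.85 times in si-SET. The log2 fold changes were 2.26 (standard error 0.18) and 0.88 (0.23).

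**Figure D1:**
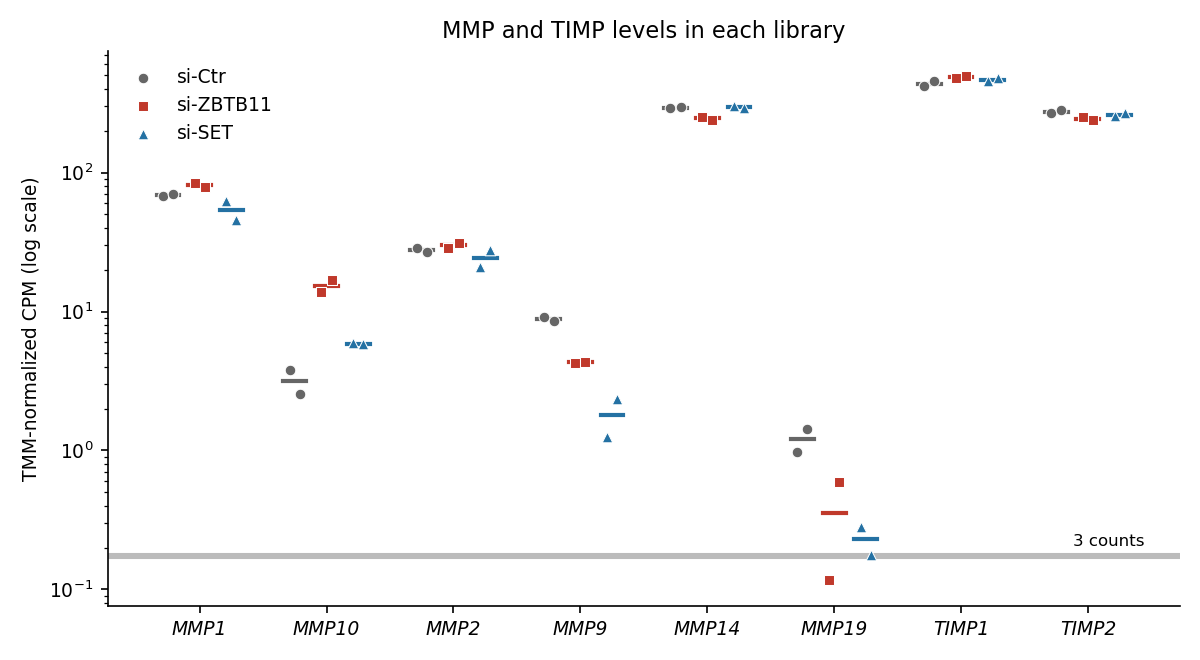
TMM-normalized CPM (log scale) of the 8 members with counts, in each of the 6 libraries; points are libraries, short bars the mean of the 2 replicates, and the grey band the level of 3 counts. MMP10 is highest in si-ZBTB11, MMP9 is highest in si-Ctr and lowest in si-SET, MMP19 reaches the level of 3 counts, and MMP3 and TIMP3 are not drawn because they had 0 counts.

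MMP9 and MMP2 are the gelatinases, which digest denatured collagen and the type IV collagen of basement membranes. MMP9 (chromosome 20, 46008908 to 46016561, plus strand) had 160 and 143 counts in si-Ctr, 74 and 72 in si-ZBTB11, and 22 and 40 in si-SET. The 3 groups did not overlap, with si-SET lowest. MMP9 averaged 8.84 ± 0.422 CPM in si-Ctr, 4.30 ± 0.00857 in si-ZBTB11 and 1.79 ± 0.780 in si-SET, which is 48.6% and 20.3% of control. Its log2 fold changes were −1.04 (standard error 0.19) and −2.30 (0.24). MMP2 (chromosome 16, 55389700 to 55506691, plus strand) had 505 and 449 counts in si-Ctr, 498 and 519 in si-ZBTB11, and 373 and 470 in si-SET. The si-SET libraries straddled the lower control, and the log2 fold changes were 0.10 (standard error 0.09) on ZBTB11 knockdown and −0.20 (0.10) on SET knockdown. In mean CPM, MMP2 thus stood at 108% of control in si-ZBTB11 and 87.3% in si-SET. The value on SET knockdown depended on single libraries, with log2 fold changes from −0.40 to −0.02 when 1 library was left out.

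MMP1, the interstitial collagenase that opens fibrillar collagen, was the most abundant secreted MMP. MMP1 (chromosome 11, 102789401 to 102798160, minus strand) had 1182 and 1177 counts in si-Ctr, 1452 and 1323 in si-ZBTB11, and 1115 and 778 in si-SET. Both si-ZBTB11 libraries lay above the controls, and in CPM both si-SET libraries lay below them, although far apart from each other. The levels were 68.9 ± 1.97, 81.7 ± 3.63 and 54.2 ± 12.3 CPM (SD, n = 2), with log2 fold changes of 0.24 (standard error 0.06) and −0.34 (0.07). The value for si-SET rested largely on replicate 2, without which it was −0.13. MMP3, or stromelysin-1, the near relative of MMP10, had 0 counts in all 6 libraries, which allows up to 3 counts or 0.17 to 0.18 CPM per library and covers counting error only.

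MMP14 is anchored in the cell membrane, where it cuts collagen and opens the MMP2 precursor in a complex with TIMP2. MMP14 (chromosome 14, 22836560 to 22849041, plus strand) had 5075 and 4941 counts in si-Ctr, 4361 and 4021 in si-ZBTB11, and 5375 and 4965 in si-SET. The si-ZBTB11 libraries were the lowest and the si-SET libraries enclosed one control, at 247 ± 8.89 and 297 ± 8.73 CPM against 292 ± 3.72. The log2 fold changes were −0.25 (standard error 0.04) and 0.02 (0.04). MMP19, which cuts basement membrane components, was close to the limit of detection. MMP19 (chromosome 12, 55835433 to 55842966, minus strand) had 17 and 24 counts in si-Ctr, 2 and 10 in si-ZBTB11, and 5 and 3 in si-SET. Every knockdown library lay below both controls, the log2 fold changes were −1.74 (standard error 0.57) and −2.34 (0.62), and without si-ZBTB11 replicate 1 the former was −0.998.

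TIMP1, which also binds the MMP9 precursor, and TIMP2, which binds the MMP2 precursor, were abundant and varied little. TIMP1 (chromosome X, 47582408 to 47586789, plus strand) had 7316 and 7639 counts in si-Ctr, 8277 and 8293 in si-ZBTB11, and 8034 and 8177 in si-SET. TIMP2 (chromosome 17, 78852977 to 78925387, minus strand) had 4672 and 4741 counts in si-Ctr, 4301 and 4010 in si-ZBTB11, and 4511 and 4555 in si-SET. TIMP1 was the higher and TIMP2 the lower of the pair in si-ZBTB11 relative to control, at 112% and 89% of its level, with log2 fold changes of 0.16 (standard error 0.04) and −0.17 (0.04). In si-SET both overlapped the controls in CPM, with log2 fold changes of 0.10 (0.04) and −0.07 (0.04). TIMP3, the inhibitor that stays bound to the matrix, had 0 counts in all 6 libraries, under the same limit as MMP3.

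Of the 10 members, 8 passed the filter on low counts in each comparison with control, MMP3 and TIMP3 being left out. On ZBTB11 knockdown 7 of the 8 had an adjusted p below 0.05, 3 higher and 4 lower, where 20.5% of all 13534 genes tested did, and on SET knockdown 4 of the 8 did, 1 higher and 3 lower, where 27.0% of 13599 genes did. The members were selected on these contrasts, so nothing is read from these counts. In 8 of 8 and 4 of 8 members the libraries of knockdown and control did not overlap in CPM, beside 57.0% and 61.5% of all genes tested.

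**Figure D2:**
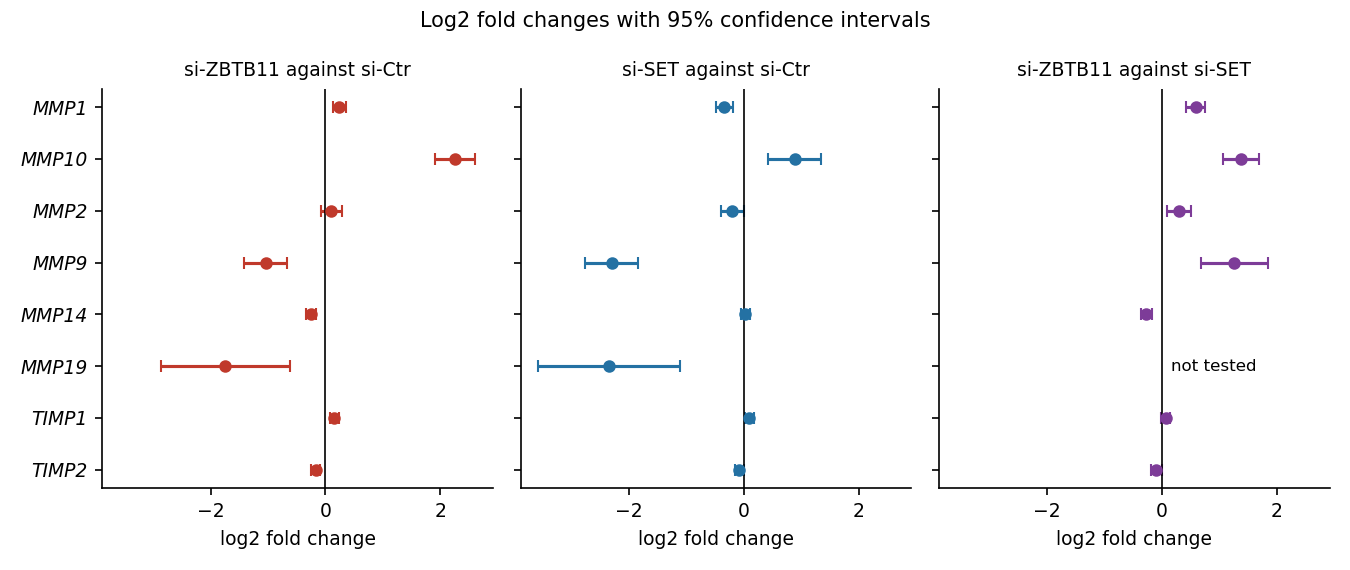
Log2 fold change of each member with its 95% confidence interval from edgeR in si-ZBTB11 against si-Ctr (left), si-SET against si-Ctr (middle) and si-ZBTB11 against si-SET (right); positive values mean higher in the first group named. MMP10 is positive in all 3 panels, at 2.26, 0.88 and 1.38, MMP9 is at −1.04 and −2.30 against control, and MMP19 was not tested between the knockdowns.

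Compared directly, the knockdowns differed in 5 of the 7 members tested, beside 18.2% of all 13549 genes tested, and the libraries of all 7 were apart, beside 56.6% of genes. MMP1, MMP2, MMP9 and MMP10 were higher in si-ZBTB11 than in si-SET, and MMP14 was lower. The targets were depleted unequally. ZBTB11 stood at 55.0% of control in si-ZBTB11 and 76.2% in si-SET, and SET at 8.97% in si-SET. Whether this bears on the differences was not tested. The same knockdown libraries had been in view when the members were chosen, so the adjusted p-values are not free of that choice. Nothing is read from the number of members called. MMP10 was 2.61 times as high in si-ZBTB11 (log2 difference 1.38, 95% confidence interval 1.07 to 1.69, edgeR adjusted p = 3.08e-08). MMP9 was 2.40 times as high (1.26, 0.67 to 1.85, edgeR adjusted p = 0.00192), and without si-SET replicate 1 this difference was 0.87 at an edgeR adjusted p of 0.0554. MMP1 differed by 0.58 (0.41 to 0.76, edgeR adjusted p = 4.20e-06), though DESeq2 put it at an adjusted p of 0.0864.

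MMP2 differed by 0.30 (0.09 to 0.51, edgeR adjusted p = 0.0409), and this call was lost with DESeq2, with library size alone as the scaling, and without si-SET replicate 1 or si-ZBTB11 replicate 2. MMP14 was lower in si-ZBTB11 by a log2 difference of −0.27 (−0.36 to −0.18, edgeR adjusted p = 2.71e-05). For TIMP1 the difference was 0.06 (−0.02 to 0.14, edgeR adjusted p = 0.345) and for TIMP2 −0.10 (−0.19 to −0.01, edgeR adjusted p = 0.141), so that neither passed the test. The intervals are not adjusted for the number of genes tested, and a missing call does not show equal levels. MMP19, at 0.357 ± 0.341 and 0.229 ± 0.0752 CPM, had too few counts to be tested and its libraries overlapped.

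To compare levels between genes, counts were divided by the length of the exons and scaled to the same total in each library (TPM). In si-Ctr the order was TIMP1 at 1244 ± 77.1 TPM (SD, n = 2), MMP14 at 260 ± 3.27, TIMP2 at 182 ± 7.62, MMP1 at 104 ± 2.95, MMP2 at 24.3 ± 1.26, MMP9 at 15.6 ± 0.747, MMP10 at 7.41 ± 1.99 and MMP19 at 1.06 ± 0.288. No neighbours in this order overlapped in their replicates. In si-ZBTB11 MMP10 reached 34.5 ± 4.90 TPM and stood above MMP2 at 25.3 ± 1.37, while MMP9 stood at 7.30 ± 0.041. In si-SET MMP9 stood at 3.11 ± 1.34 TPM, below MMP10 at 13.5 ± 0.256. MMP9 and MMP10 thus changed places in the order on either knockdown.

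**Figure D3:**
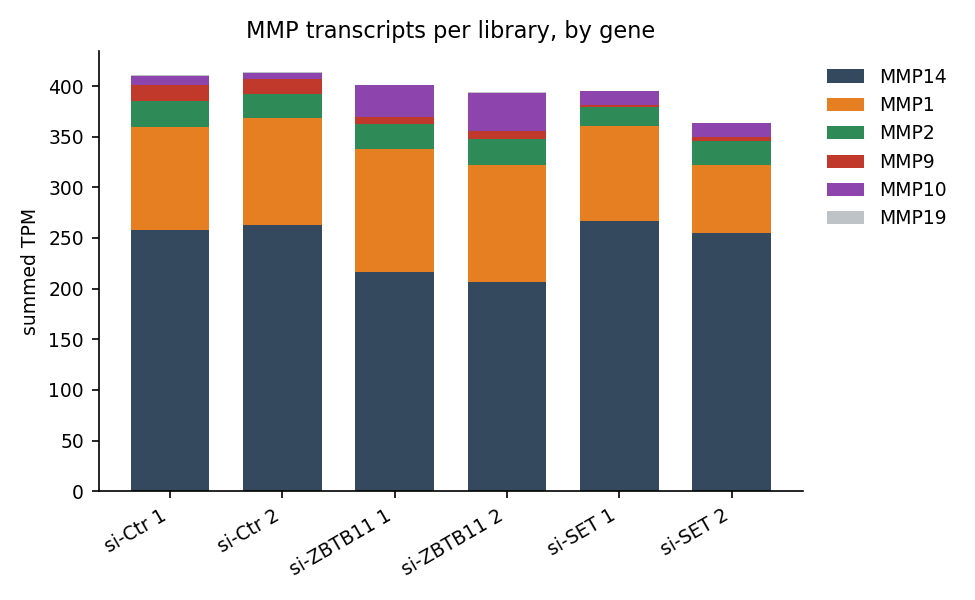
Summed TPM of the 6 MMP members with counts in each library (vertical axis, from 0), stacked by gene. MMP14 makes up the largest layer of every bar, the MMP10 layer is widest in si-ZBTB11, and the MMP9 layer is thinnest in si-SET.

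Among the MMP members, MMP14 made up 63.1% of the summed level in si-Ctr, 53.3% in si-ZBTB11 and 68.9% in si-SET. MMP genes outside the members, such as MMP17 at 21.2 ± 2.32 TPM in si-Ctr, are left out of all these sums. The secreted members MMP1, MMP2, MMP3, MMP9, MMP10 and MMP19 together came to 152 ± 0.756 TPM in si-Ctr, 186 ± 1.78 in si-ZBTB11 and 118 ± 13.6 in si-SET. The sum of the MMP members over the sum of the TIMP members was 0.29 ± 0.0154, 0.266 ± 0.00899 and 0.257 ± 0.0239, and TIMP1 accounted for 87.2% to 89.5% of the TIMP sum. The mean ratio was lower on either knockdown than in si-Ctr, a difference that was not tested. The MMP sum was 412 ± 2.51 TPM in si-Ctr, 397 ± 5.08 in si-ZBTB11 and 379 ± 22.3 in si-SET. The TIMP sum was 1426 ± 84.7, 1495 ± 31.5 and 1480 ± 51.1 TPM in the same order. These are transcript levels, and the activity of the enzymes was not measured.

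MMP10, MMP1 and MMP3 lie next to each other in the MMP gene cluster of chromosome 11, and 8773 bases separate MMP10 from MMP1. Along the cluster, MMP7, MMP20, MMP27, MMP8, MMP3 and MMP12 had at most 4 counts in any library. MMP13, the next expressed gene of the cluster, had 41 and 52 counts in si-Ctr, 50 and 52 in si-ZBTB11, and 51 and 57 in si-SET. Its log2 fold changes were 0.14 and 0.19 (edgeR adjusted p = 0.784 and 0.672), with confidence intervals that reach 0.69 and 0.76. On the other side, TMEM123 had a log2 fold change of −0.04 on ZBTB11 knockdown (edgeR adjusted p = 0.496) and fell by 0.39 on SET knockdown (edgeR adjusted p = 3.36e-14). Farther out, BIRC3 fell on both knockdowns (−0.32 and −0.91, edgeR adjusted p = 5.86e-08 and 9.14e-31). BIRC2, which lies between TMEM123 and BIRC3, was called on neither (−0.03 and −0.09, edgeR adjusted p = 0.764 and 0.183). On ZBTB11 knockdown the difference of MMP10 was thus not shared in size by MMP1, MMP13 or TMEM123.

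**Figure D4:**
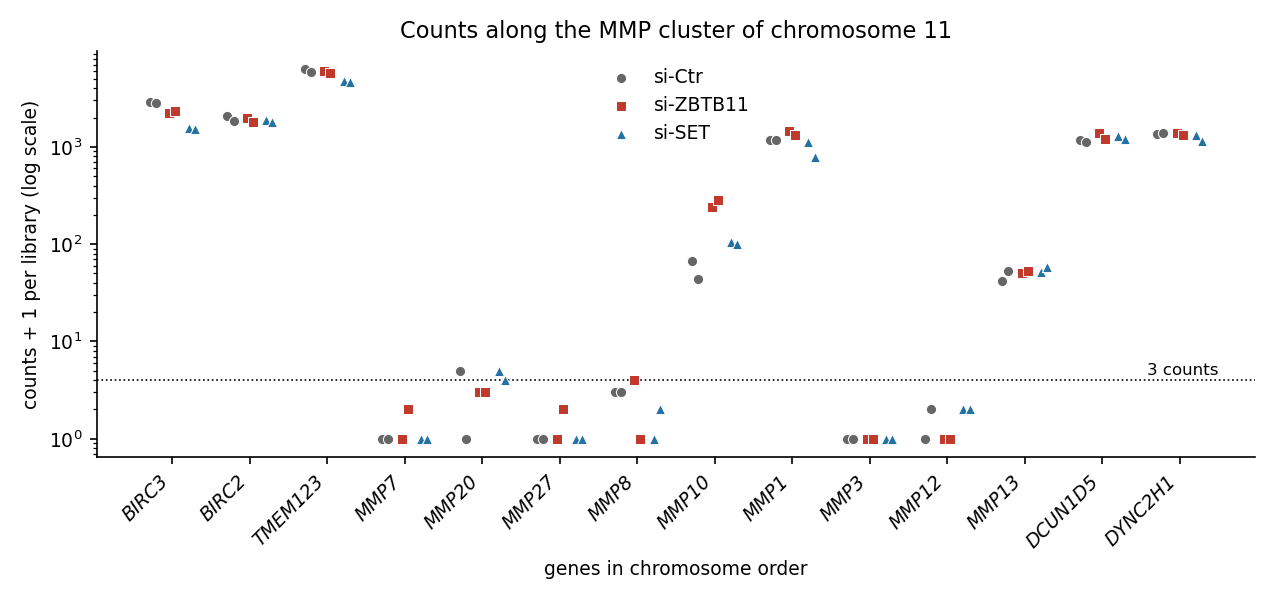
Counts + 1 in each library (log scale) for the genes of the MMP cluster on chromosome 11 and the genes that flank it, in chromosome order but not to scale; the dotted line marks 3 counts. MMP10, with 43 to 281 counts, separates the treatments by the widest margin, MMP1 and MMP13 lie closer together, and the 6 other MMP genes drawn had at most 4 counts.

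Neighbours of the other members were read in the same way. Next to MMP9, SLC12A5 had 81 and 108 counts in si-Ctr, 93 and 98 in si-ZBTB11, and 63 and 66 in si-SET, and it fell on SET knockdown (log2 fold change −0.57, edgeR adjusted p = 0.0474), with 0.02 on ZBTB11 knockdown (edgeR adjusted p = 0.956) and a difference of 0.59 between them (edgeR adjusted p = 0.0462). With DESeq2 its adjusted p was 0.287 on SET knockdown and 0.268 between the knockdowns, and the former call was also lost without si-Ctr replicate 2 or either si-SET replicate and the latter without any 1 of the 4 libraries. On the other side of MMP9, ZNF335 passed in neither (−0.11 and −0.08, edgeR adjusted p = 0.212 and 0.407). Some members overlap other genes and the strand setting of the counting is not given, so reads of the pair cannot be told apart: exons of MMP9 overlap SLC12A5-AS1, those of MMP1 and MMP3 WTAPP1, and those of MMP19 TMEM198B, all on the opposite strand. TIMP2 overlaps CEP295NL on the same strand, which had 12 to 24 counts. MMP10 shares 7.11% of its 31-base words with MMP3, and MMP9, MMP1, MMP14, TIMP1 and TIMP3 share none with another gene.

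Of 17 further MMP and TIMP genes, 8 had enough counts to be tested. MMP17, which is tied to the membrane by a glycolipid anchor, had 333 and 372 counts in si-Ctr, 160 and 191 in si-ZBTB11, and 272 and 287 in si-SET. MMP17 fell on both knockdowns, by 0.996 on the log2 scale in si-ZBTB11 (edgeR adjusted p = 5.17e-10) and by 0.36 in si-SET (edgeR adjusted p = 0.0115), and the knockdowns differed by −0.64 (edgeR adjusted p = 0.000829). MMP17 was lowest in si-ZBTB11, whereas MMP9 was lowest in si-SET. The calls of MMP17 on ZBTB11 knockdown and between the knockdowns held under all 11 alternatives that gave an adjusted p. MMP11 fell on ZBTB11 knockdown (−0.54, edgeR adjusted p = 0.00191), and on SET knockdown MMP15 fell (−0.51, edgeR adjusted p = 0.047) and MMP16 rose (0.31, edgeR adjusted p = 0.012). In all, 2 of the 8 fell and none rose in si-ZBTB11, with a median log2 fold change of −0.13, beside the 20.5% of all genes called, and 2 fell and 1 rose in si-SET, with a median of −0.28, beside 27.0%. DESeq2 called 1 and 0 of them, with MMP11 at an adjusted p of 0.0558 and MMP17, MMP16 and MMP15 at 0.158, 0.143 and 0.275 on SET knockdown. On SET knockdown edgeR called 0 without si-Ctr replicate 2 and 1 without si-SET replicate 1. Over all genes tested the median lay within 0.00 of no change in both. TIMP4, the remaining inhibitor, had at most 1 count.

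Among 17 genes that open, dock or inhibit MMPs outside the TIMP family, 6 of 15 tested fell on ZBTB11 knockdown and none rose (median −0.14), beside 20.5% of all genes called, and 5 of 17 fell and 1 rose on SET knockdown (median −0.03), beside 27.0%. PLAU, the urokinase that makes the plasmin which opens several MMP precursors, had 11563 and 11005 counts in si-Ctr, 6870 and 6428 in si-ZBTB11, and 7391 and 7454 in si-SET. It fell by 0.75 and 0.62 on the log2 scale (edgeR adjusted p = 4.91e-35 and 1.69e-28), and its receptor PLAUR fell by 0.26 and 0.20 (edgeR adjusted p = 2.86e-08 and 1.99e-05). FURIN, which opens MMP14 inside the cell, fell by 0.19 and 0.27 (edgeR adjusted p = 0.00129 and 3.83e-06), the former call being lost without si-Ctr replicate 2 (edgeR adjusted p = 0.0594). THBS1, which binds MMP9 and MMP2, fell in si-ZBTB11 (−0.43, edgeR adjusted p = 1.73e-07), had a log2 fold change of −0.01 in si-SET (edgeR adjusted p = 0.907), and differed between the knockdowns by −0.41 (edgeR adjusted p = 2.49e-05). TFPI2, an inhibitor of plasmin and of some MMPs, fell in si-SET (−0.21, edgeR adjusted p = 0.00449), with −0.05 in si-ZBTB11 (edgeR adjusted p = 0.67). That fall was lost with DESeq2 (adjusted p = 0.0808) and without si-Ctr replicate 2.

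Of 20 tested transcription factors known at MMP promoters, 7 passed on ZBTB11 knockdown, 3 higher and 4 lower (median −0.03), beside 20.5% of all genes, and 10 on SET knockdown, 4 higher and 6 lower (median −0.08), beside 27.0%. DESeq2 called 4 and 7. Members of the AP-1 family moved in opposite directions. FOSL1 fell by 0.48 and 0.27 (edgeR adjusted p = 2.66e-20 and 1.10e-08), whereas JUN rose by 0.37 and 0.25 (edgeR adjusted p = 5.20e-09 and 6.17e-05) and JUND by 0.14 and 0.40 (edgeR adjusted p = 0.0331 and 2.92e-11). The JUND call on ZBTB11 knockdown was lost with DESeq2 (adjusted p = 0.183), with library size alone as the scaling, and without si-Ctr replicate 1 or either si-ZBTB11 replicate. NFKB2, a subunit of NF-kB, fell by 0.40 and 0.75 (edgeR adjusted p = 6.28e-12 and 3.54e-27). NFKB2 fell more in si-SET than in si-ZBTB11 (0.35 between them, edgeR adjusted p = 4.07e-06), the order of groups that MMP9 had. The other subunits did not share these calls: RELB was called on SET knockdown alone (−0.24, edgeR adjusted p = 0.00029), and NFKB1, REL and RELA on neither knockdown. FOSL2, of the AP-1 family, also fell in the order of MMP9 (−0.19 and −0.42, edgeR adjusted p = 0.00599 and 7.16e-10). The knockdowns differed in FOSL2 by 0.23 (edgeR adjusted p = 0.00386). Its call on ZBTB11 knockdown was lost with DESeq2 (adjusted p = 0.0864). A link between these genes and MMP9 was not tested. ETV4, an ETS factor, had 598 and 537 counts in si-Ctr, 347 and 332 in si-ZBTB11, and 474 and 477 in si-SET. ETV4 fell by 0.73 and 0.27 (edgeR adjusted p = 8.62e-10 and 0.0156), the order that MMP17 also showed. The ETV4 call on SET knockdown was lost with DESeq2 (adjusted p = 0.151) and without si-Ctr replicate 1 or si-SET replicate 1.

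Substrates of the MMPs moved in both directions. Of 8 basement membrane and matrix genes tested on ZBTB11 knockdown 3 rose and 1 fell (median 0.09), beside 20.5% of all genes called, and of 9 on SET knockdown 1 rose and 3 fell (median −0.04), beside 27.0%. On SET knockdown 2 were called with DESeq2 and 2 without si-Ctr replicate 2, TNC and NID1 in both cases. TNC, which encodes the matrix protein tenascin-C, had 1262 and 1353 counts in si-Ctr, 1803 and 1837 in si-ZBTB11, and 1079 and 1025 in si-SET. TNC rose in si-ZBTB11 (0.49, edgeR adjusted p = 1.51e-11) and fell in si-SET (−0.34, edgeR adjusted p = 1.61e-05), the same signs as the log2 fold changes of MMP1. COL4A5 and COL4A6, chains of basement membrane collagen, rose in si-ZBTB11 (0.38 and 0.51, edgeR adjusted p = 0.000191 and 0.00949), COL4A6 not being called with DESeq2 (adjusted p = 0.141) or without si-Ctr replicate 1 or si-ZBTB11 replicate 2. NID1, a linker of basement membranes, fell on both knockdowns (−0.48 and −0.35, edgeR adjusted p = 6.87e-07 and 0.000252). COL4A1 and COL4A2, the main chains of type IV collagen, had at most 5 counts.

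Among the 30 ADAM and ADAMTS proteases, relatives of the MMPs that shed cell surface proteins or cut proteoglycans, 22 were tested. On ZBTB11 knockdown 4 fell and 1 rose (median −0.13), beside 20.5% of all genes called, and on SET knockdown 2 fell and 2 rose (median 0.04), beside 27.0%. These calls depended on single libraries and on the test. DESeq2 called 1 and 0 in place of 5 and 4. With edgeR, the count on ZBTB11 knockdown was 2 or 3 without si-Ctr replicate 1 or 2 and 1 or 3 without si-ZBTB11 replicate 1 or 2, and on SET knockdown it was 0 or 1 without si-Ctr replicate 1 or 2 and 1 without si-SET replicate 2. Of the genes called, ADAM9 alone kept its call against control under all 11 alternatives that gave an adjusted p. ADAM17, the main sheddase of TNF and EGFR ligands, fell by 0.17 and 0.20 (edgeR adjusted p = 0.0478 and 0.0147), and ADAMTS7 by 1.02 and 0.74 (edgeR adjusted p = 0.00408 and 0.0385). ADAM9 fell in si-ZBTB11 (−0.19, edgeR adjusted p = 0.000733), with 0.06 in si-SET (edgeR adjusted p = 0.322), and the knockdowns differed by −0.26 (edgeR adjusted p = 0.000184). ADAMTS16 rose in si-ZBTB11 (0.56, edgeR adjusted p = 0.0231), and in si-SET the rises were those of ADAM28 and ADAMTS13 (1.23 and 0.31, edgeR adjusted p = 0.0357 and 0.0434).

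The genes closest to MMP9 and MMP10 in pattern were found by the root-mean-square difference of centred log2 CPM over the 6 libraries, among 12713 genes. Closest to MMP9 were TMC8 (0.149), PECAM1 (0.25), UBA7 (0.26), PDCD1LG2 (0.278) and ARHGDIB (0.3). TMC8 had 124 and 146 counts in si-Ctr, 78 and 70 in si-ZBTB11, and 23 and 40 in si-SET, close to the counts of MMP9 itself. Closest to MMP10 were ANKRD20A3 (0.457), PRRG2 (0.49), GAP43 (0.509), P4HA3 (0.52) and SERPINB2 (0.527), all farther away than the nearest genes were from MMP9. GAP43 had 68 and 70 counts in si-Ctr, 159 and 160 in si-ZBTB11, and 110 and 126 in si-SET. The 6 points share 3 treatments and 2 libraries each, so the values describe likeness in these libraries and carry no test.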

How the data were processed

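RNA-seq was measured in 6 libraries of NCI-H1299 cells, 2 per treatment. HISAT2 2.0.5 (on hg38) and featureCounts 1.5.0-p3 were used by the authors for alignment and counting; the deposited values are these whole-number counts, without normalization. Their strand setting and gene annotation are not given in the sources used here.

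Each pair of groups was fitted alone with edgeR 4.0.16 in R 4.3.3 (TMM, default filterByExpr, quasi-likelihood test, two-sided), with Benjamini-Hochberg adjustment over all genes tested and a threshold of 0.05. Standard errors and 95% intervals come from that fit. Its calls and fold changes were checked on simulated counts with the same variability for all genes. The coverage of the intervals and changes in genes with few counts were not checked. With 2 libraries per group no exact permutation test can reach 0.05. Depth was 16653115 to 17694522 counts per library, so that 3 counts, taken as the limit for a count of 0, equal 0.17 to 0.18 CPM. Samples were grouped by the treatment label, and same-numbered replicates were not paired (correlations of their deviations 0.01, 0.0461 and 0.0323).

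Positions, neighbours, exon lengths for TPM, 3′ UTRs and shared 31-base words came from hg38 and GENCODE version 44, to which 19294 of 19934 symbols matched, 492 of them through older symbols. Members, gene lists and tests were chosen with earlier results of these data known. Beside the members and siRNA targets, the text names up to 4 called genes per list and comparison with the smallest adjusted p, neighbouring or overlapping genes, and for MMP9 and MMP10 the 5 genes with the nearest pattern (prior count of 2, a mean of at least 20 counts). Cell type markers formed a further list, and TIMP4, COL4A1, COL4A2, NFKB1, REL, RELA and RELB were named after their values were seen. Alternatives were DESeq2 1.42.0, other scalings and filters, all 6 libraries in 1 fit, a replicate block, the study's call rule, each library left out, longest transcripts as length, a prior count of 0.5 and a shorter promoter window.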

Additional observations from a re-analysis of the deposited data

Results flagged for a closer look

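The effects of the knockdowns relative to the shared control differed by a direct test in 5 members. The log2 difference, si-ZBTB11 minus si-SET, was 1.38 for MMP10, 1.26 for MMP9, 0.58 for MMP1, 0.30 for MMP2 and −0.27 for MMP14 (edgeR adjusted p = 3.08e-08, 0.00192, 4.20e-06, 0.0409 and 2.71e-05). The members were chosen with these libraries in view, so these p-values are not free of that choice. The call of MMP1 was lost with DESeq2 (adjusted p = 0.0864), that of MMP9 without si-SET replicate 1 (edgeR adjusted p = 0.0554), and that of MMP2 with DESeq2, with library size alone as the scaling, and without si-SET replicate 1 or si-ZBTB11 replicate 2.

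Among the genes of the lists, the same test passed for MMP17 (−0.64), ADAMTS13 (−0.61), ETV4 (−0.46), THBS1 (−0.41), JUND (−0.26), ADAM9 (−0.26), BSG (−0.22), FOSL1 (−0.21), PLAU (−0.13) and CD44 (−0.12), which were lower in si-ZBTB11. TNC (0.82), COL4A5 (0.42), NFKB2 (0.35) and FOSL2 (0.23) were higher in si-ZBTB11. PLAU and CD44 lost the call with DESeq2 (adjusted p = 0.0582 and 0.0503) and without some single libraries, and FOSL2 lost it without si-ZBTB11 replicate 2 (edgeR adjusted p = 0.069).

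Among genes next to the members, BIRC3 (0.59) and TMEM123 (0.35) at the MMP cluster, SLC12A5 (0.59) next to MMP9, and LGALS3BP (0.44) and USP36 (0.23) on either side of TIMP2 were higher in si-ZBTB11, and HMGXB4 (−0.27), the nearest tested gene on one side of TIMP3, was lower. These are differences between the knockdowns. Against si-Ctr, BIRC3 (−0.32 and −0.91) and LGALS3BP (−0.40 and −0.83) fell in both si-ZBTB11 and si-SET, and less in si-ZBTB11. USP36 stood at −0.04 and −0.28 and HMGXB4 at −0.05 and 0.22, in the same order. SLC12A5 and HMGXB4 lost the call between the knockdowns with DESeq2 (adjusted p = 0.268 and 0.147) and without some single libraries. The targets themselves differed by −0.48 for ZBTB11 and 3.49 for SET.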

How the results depend on the processing

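The number of members called moved by more than 1.5 times with DESeq2 on SET knockdown, to 1 from 4, and between the knockdowns, to 3 from 5. With the study's rule (unadjusted p under 0.05 and absolute log2 fold change over 1) it was 3, 2 and 2 in the order si-ZBTB11 against si-Ctr, si-SET against si-Ctr and si-ZBTB11 against si-SET, from 7, 4 and 5. DESeq2 gave MMP19 no adjusted p in either comparison with control. Leaving out 1 library at a time gave 5 to 7, 3 to 5 and 3 to 5 members, and the lone library of a group was then assumed to vary like the other group. Between the knockdowns the 3 came from leaving out si-SET replicate 1. For the genes of the lists, DESeq2 called 15 and 13 against control in place of 24 and 27, and 12 in place of 15 between the knockdowns. The study's rule called 1, 2 and 0 of them. Without 1 library these counts ranged over 17 to 21, 17 to 21 and 12 to 16, with 17 on SET knockdown without si-Ctr replicate 2.

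With the replicate block, 7, 5 and 5 members and 24, 27 and 16 genes of the lists were called. The numbers do not pair the libraries, and the member gained on SET knockdown was TIMP1 at a log2 fold change of 0.10. The MMP14 value on SET knockdown, which passed no test, ranged over −0.0085 to 0.0524 without 1 library, the former without si-SET replicate 1. MMP10 and MMP9 kept their direction in all 3 comparisons under every alternative run. Without 1 library MMP10 ranged over 2.02 to 2.57, 0.64 to 1.19 and 1.23 to 1.51, and MMP9 over −1.09 to −0.99, −2.83 to −1.91 and 0.87 to 1.78. MMP19 ranged over −3.29 to −0.998 on ZBTB11 knockdown. With the longest transcript as length, the sum of the MMP members over that of the TIMP members in si-Ctr was 0.263. With a prior count of 0.5, 5 of 5 genes nearest to MMP9 and 4 of 5 nearest to MMP10 were shared. Counts under about 40 per library limit MMP19 and, in si-SET, MMP9.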
